A study of Mus musculus with 2 samples.

Results

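The 10 genes described here carry, store, export and sense iron in the liver or degrade heme. They were chosen by name from the 32285 genes of the series: the hepcidins *Hamp* and *Hamp2*, the transferrin receptors *Tfr2* and *Tfrc*, transferrin (*Trf*), ferroportin (*Slc40a1*), heme oxygenase 1 (*Hmox1*), the ferritin subunits *Fth1* and *Ftl1*, and ceruloplasmin (*Cp*). All 10 were found. They were measured by snRNA-seq in 2 libraries of mouse liver, 1 labelled Flox and 1 labelled HKO. Both groups were male C57BL6/J mice with floxed *Themis* alleles that ate a MASH diet (AMYLIN liver NASH diet in the labels) from the age of 10 to 12 weeks for 5 months. MASH is metabolic dysfunction–associated steatohepatitis, and the diet drew 40% of its energy from fat and 20% from fructose and held 2% cholesterol. The Flox group had the genotype *Themis* flox/flox and no Cre is named for it, although its sample title calls it WT. The HKO group had the genotype *Themis* Alb-Cre, in which the albumin promoter drives Cre in hepatocytes. The livers of several mice of a genotype were pooled before the nuclei were isolated and sorted, so a group is 1 library and the animals in it cannot be separated. Without replicates there is no test of the groups against each other. The values in parentheses are exact 95% intervals, and they cover counting error only.

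Hepcidin is a peptide hormone that hepatocytes secrete when iron is plentiful or inflammation is present. It binds ferroportin, the only known iron exporter of mammalian cells, and causes it to be degraded, so that macrophages, hepatocytes and the gut retain iron. BMP ligands from the sinusoidal endothelium, acting through SMAD proteins, and IL-6, acting through STAT3, both raise transcription of the hepcidin gene. Macrophages of the liver take up aged red cells, open their heme with heme oxygenase and return the iron through ferroportin, while ferritin holds what is kept. Iron regulatory proteins bind a stem-loop in several of these mRNAs when iron is scarce. They block translation where the stem-loop lies ahead of the coding sequence and protect the mRNA where it lies behind it.

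The deposited matrices held 9363 (Flox) and 10748 (HKO) barcodes with 58171337 and 40475938 UMIs, and 27 barcodes were present in both. After removal of doublets and of barcodes with fewer than 300 genes, 8659 and 9801 nuclei remained. Nuclei were put into classes by UMIs of marker genes, and each class is named for the cell type that its markers resemble. There were 5867 and 4541 hepatocytes (median 7427 and 5775 UMIs), 575 and 1430 macrophages (2084 and 1361), 780 and 1147 stellate cells, 692 and 1113 endothelial cells, 78 and 342 cholangiocytes, 81 and 143 T cells, and 52 and 67 B cells, with Flox first. The hepatocyte markers were all detected in hepatocytes, while *Krt19*, a marker of bile duct cells, had only 2 and 15 UMIs in cholangiocytes. *Themis*, the gene that Alb-Cre was meant to remove, went against the labels: it stood at 163 CPM in hepatocytes of the Flox library and 243 CPM in those of the HKO library. The part of the gene that Cre removes is not given in the sources used here and 3′ reads may lie outside it, so this count is no check of the deletion. The libraries are therefore called by their labels throughout. CPM stands for the UMIs of a gene scaled to 1000000 UMIs of the class, and a gene counts as past the fold when the 2 CPM values differ at least 1.5-fold and rest on at least 100 UMIs together.

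In hepatocytes, 3 of the 10 genes were at least 1.5-fold higher in the library labelled HKO (*Hamp2*, *Tfrc* and *Slc40a1*) and 1 was at least 1.5-fold lower (*Hamp*). Of all 12189 genes with at least 100 UMIs in hepatocytes, 8.77% were that much higher and 10.8% that much lower. The median ratio of the 10 genes was 1.14, beside 0.987 over all genes. These counts describe the genes and were not tested as a set. In macrophages, 8 of the 10 genes had at least 100 UMIs, none was past the fold upward, and 5 were at least 1.5-fold lower in the library labelled HKO (*Hamp*, *Slc40a1*, *Hmox1*, *Fth1* and *Ftl1*), while 3.85% of 5688 genes were that much higher and 9.32% that much lower. *Hamp* there is no higher than genes that mark free RNA, as given with its values. Their median ratio was 0.60, beside 0.942 over all genes. The ratio of ferroportin thus stood on opposite sides of 1 in hepatocytes and macrophages.

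**Figure D1:**
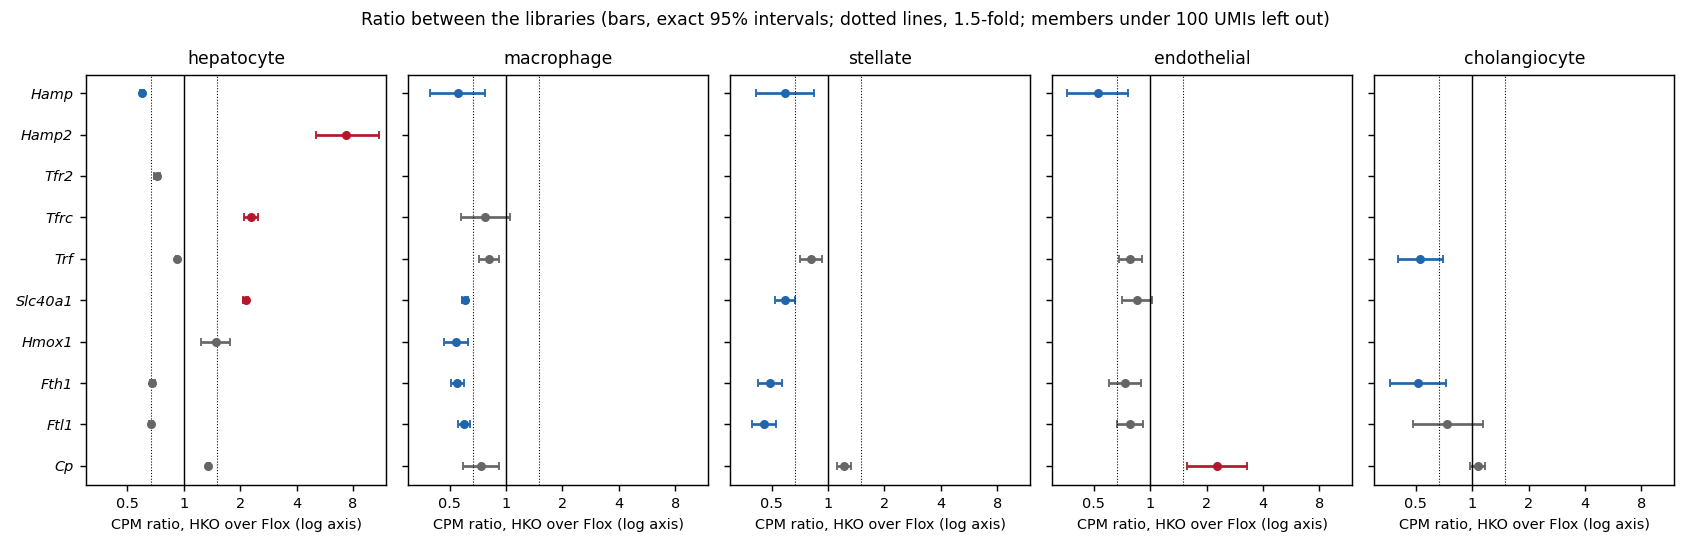
Ratio of CPM in the library labelled HKO to that in the library labelled Flox (log axis) for each gene in 5 cell classes. Points are ratios, bars exact 95% intervals, dotted lines 1.5-fold, red and blue mark genes past the fold, and genes with under 100 UMIs are left out. *Slc40a1* sits right of the line in hepatocytes at 2.14 and left of it in macrophages at 0.604 and stellate cells at 0.591.

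*Hamp*, the main hepcidin gene of the mouse, lies on the minus strand of chromosome 7 at chr7:30942368-30944032 (GRCm38), and its copy *Hamp2* at chr7:30922372-30924681 on the same strand. The stretches printed here run from 250 to 11 bases ahead of the transcription start of RefSeq (GRCm38.p6, minus strand, chr7:30944040-30944279 for *Hamp* and chr7:30924192-30924431 for *Hamp2*). The GENCODE span of *Hamp2* starts further upstream than RefSeq places it, so this stretch lies ahead of the RefSeq start but inside the GENCODE span. They are shown because the pair differs in 1 of the 2 motifs searched. Only the 250 bases ahead of the start were searched, so sites of control further away are not covered. Capitals mark the BMP response element GGCGCC and the STAT site TTCNNNGAA, searched on both strands. The 2 motifs do not overlap.
*Hamp*: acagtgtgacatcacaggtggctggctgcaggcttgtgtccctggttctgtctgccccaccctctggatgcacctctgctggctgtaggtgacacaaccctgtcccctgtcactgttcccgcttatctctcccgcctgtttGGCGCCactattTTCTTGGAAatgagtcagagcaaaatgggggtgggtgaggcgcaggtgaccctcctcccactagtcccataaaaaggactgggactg
*Hamp2*: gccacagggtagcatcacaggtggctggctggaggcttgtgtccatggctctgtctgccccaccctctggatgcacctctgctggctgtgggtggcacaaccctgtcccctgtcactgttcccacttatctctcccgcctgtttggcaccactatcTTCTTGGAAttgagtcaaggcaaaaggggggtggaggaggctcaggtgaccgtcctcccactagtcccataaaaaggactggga
The *Hamp* stretch held GGCGCC from 109 to 104 bases ahead of the start and the STAT match from 97 to 89. The *Hamp2* stretch held the STAT match from 94 to 86 bases ahead and no GGCGCC. Of 27025 promoters, 9.54% held GGCGCC and 7.18% the STAT motif in the 250 bases ahead of the start, so a match by itself is common. The 2 promoters were identical at 227 of 247 aligned bases (91.9%) and the 2 transcripts at 388 of 410 (94.6%), so that reads from the shared stretches can be hard to assign to one gene.

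*Hamp* stood at 562 CPM (555 to 569) in hepatocytes of the library labelled Flox and at 337 CPM (330 to 344) in those labelled HKO. The ratio was 0.599 (0.585 to 0.614), and it lay between 0.552 and 0.632 under the 8 other ways of processing. Fewer nuclei carried it as well: thinned to 1000 UMIs each, 30.1% (28.9 to 31.3) of the hepatocytes labelled Flox and 19.3% (18.1 to 20.5) of those labelled HKO held a *Hamp* UMI. Without thinning the shares were 59.5% and 41.1%. The *Hamp* UMIs were unevenly spread, since the tenth of hepatocytes with the most held 48.1% of them in the Flox library and 62.7% in the HKO library.

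*Hamp2* was rare and went the other way. Hepatocytes labelled Flox held 34 UMIs of it (0.738 CPM, 0.511 to 1.03) and those labelled HKO held 150 (5.43 CPM, 4.6 to 6.38). The ratio was 7.36 (5.05 to 11). *Hamp2* made up 0.131% (0.0908 to 0.183) of the UMIs of both hepcidin genes in the first library and 1.59% (1.35 to 1.86) in the second. The 2 intervals do not overlap. The part of *Hamp* reads assigned to its copy was not tested. The UMIs were found in 32 and 102 nuclei, at most 2 and 6 in one nucleus. Nuclei with *Hamp2* also held more *Hamp* than those without, 734 against 561 CPM in the Flox library and 675 against 330 CPM in the HKO library. *Hamp* differed by zone, as given below, and only 2 (Flox) and 4 (HKO) *Hamp2* UMIs lay in pericentral nuclei. The part of zone in this difference was not tested. Among hepatocytes with at least 5000 UMIs (4804 and 2853 nuclei) the *Hamp2* ratio between the libraries was 4.58, a limit chosen after seeing the data.

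Outside hepatocytes *Hamp* was no higher than genes that mark free RNA. It stood between 54.7 CPM (stellate cells) and 101 CPM (B cells) in the library labelled Flox and between 32.3 and 66.3 CPM (T cells) in that labelled HKO, which is 9.59% to 19.7% of the hepatocyte level. The 8 secreted-protein genes of hepatocytes taken as a reference, among them albumin, stood at medians of 20.1% to 37.2% of their hepatocyte level in the same classes. Of these genes, *Alb*, *Ahsg* and *Fgb* are also hepatocyte markers that set the classes. That rule bears on their shares, and its effect on the medians was not tested. The lower *Hamp* in macrophages, stellate and endothelial cells labelled HKO (ratios 0.553, 0.591 and 0.525) thus lies at or under the level of those genes, and the part of free RNA in it was not tested. Thinned to 1000 UMIs, the endothelial ratio was 0.279. *Hamp2* had no UMI in the 6 other classes of the Flox library, which allows up to 2.03 CPM in stellate cells and 60.7 CPM in B cells, and 0 to 4 UMIs in those of the HKO library.

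**Figure D2:**
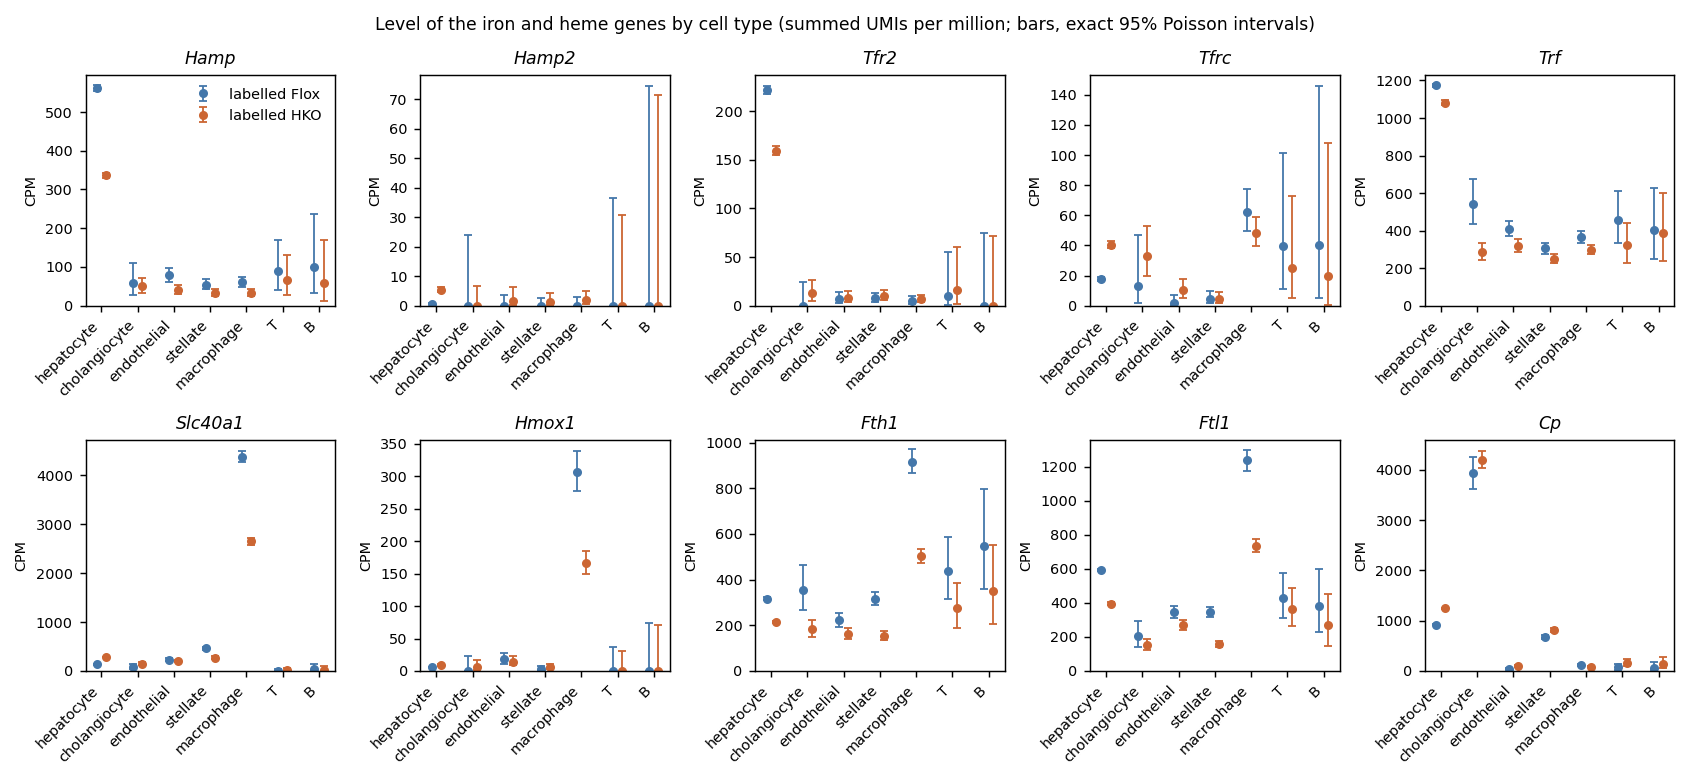
CPM of the 10 genes in 7 cell classes of the library labelled Flox (blue) and the library labelled HKO (orange), with exact 95% Poisson intervals and a linear axis of its own for each gene. *Hamp*, *Tfr2* and *Trf* peak in hepatocytes, *Slc40a1*, *Hmox1*, *Fth1* and *Ftl1* in macrophages, and *Cp* in cholangiocytes.

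Hepcidin was zonal in both libraries. Hepatocytes were called pericentral when *Glul* and *Slc1a2*, which mark the rim of the central vein, made up at least 0.1% of their UMIs (1088 and 755 nuclei), and the rest were called periportal when *Hal*, *Sds*, *Gls2* and *Cyp2f2* did (1612 and 861) or neither (3167 and 2925). Pericentral nuclei held 50.9 CPM (45.8 to 56.5) of *Hamp* in the Flox library and 50.4 CPM (43.7 to 57.9) in the HKO library. Cells other than hepatocytes held 54.7 to 101 CPM and 32.3 to 66.3 CPM, so the pericentral level was under that range in the first library and inside it in the second. Nuclei of neither zone held 514 and 278 CPM, and periportal nuclei 982 and 718 CPM. Pericentral over other hepatocytes, the ratio was 0.0778 (0.07 to 0.0864) and 0.131 (0.113 to 0.151). With nuclei thinned to 1000 UMIs before the zone was set, so that fewer markers were seen, it was 0.179 and 0.240. Between the libraries *Hamp* was lower in nuclei of neither zone (0.541, 0.523 to 0.558) and within 1.5-fold in periportal nuclei (0.732, 0.706 to 0.758), while the pericentral ratio was 0.990 (0.828 to 1.18). *Hamp2* followed the same order in the HKO library, with 1.01 CPM in pericentral, 4.19 in neither and 12.4 in periportal nuclei. These levels rest on 4, 75 and 71 UMIs.

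Of the 9 genes with enough UMIs for the zone ratio in the Flox library, 2 were at least 1.5-fold lower in pericentral nuclei (*Hamp* and *Slc40a1*), and of the 10 in the HKO library, 3 were (*Hamp*, *Hamp2* and *Slc40a1*). None was at least 1.5-fold higher in either library. *Hamp2* had too few UMIs in the Flox library (2 and 32), where its ratio was 0.346 (0.0402 to 1.36). Among all genes 7.6% were lower and 5.15% higher in the Flox library (11491 genes), and 7.53% lower and 4.55% higher in the HKO library (10749 genes). *Slc40a1* stood at 70.1 CPM in pericentral, 123 in neither and 194 in periportal nuclei labelled Flox. In those labelled HKO the levels were 177, 310 and 276 CPM, so the order of the last pair was turned. Periportal over neither, the ratio was 1.58 (1.49 to 1.66) in the first library and 0.889 (0.840 to 0.940) in the second. *Trf*, within 1.5-fold in every zone, also turned: it was highest in periportal nuclei labelled Flox (1389 CPM, with 1115 in pericentral and 1097 in neither, whose intervals overlap) and highest in pericentral nuclei labelled HKO (1341 CPM, with 1072 in neither and 931 in periportal). Pericentral over other hepatocytes, *Trf* was at 0.941 (0.919 to 0.964) in the Flox library and 1.29 (1.25 to 1.33) in the HKO library. *Tfr2*, *Tfrc*, *Fth1*, *Ftl1* and *Cp* lay between 0.809 and 1.06 in that ratio, and *Hmox1* at 0.791 and 0.668. After thinning, *Tfrc* was at 0.625 in the Flox library.

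**Figure D3:**
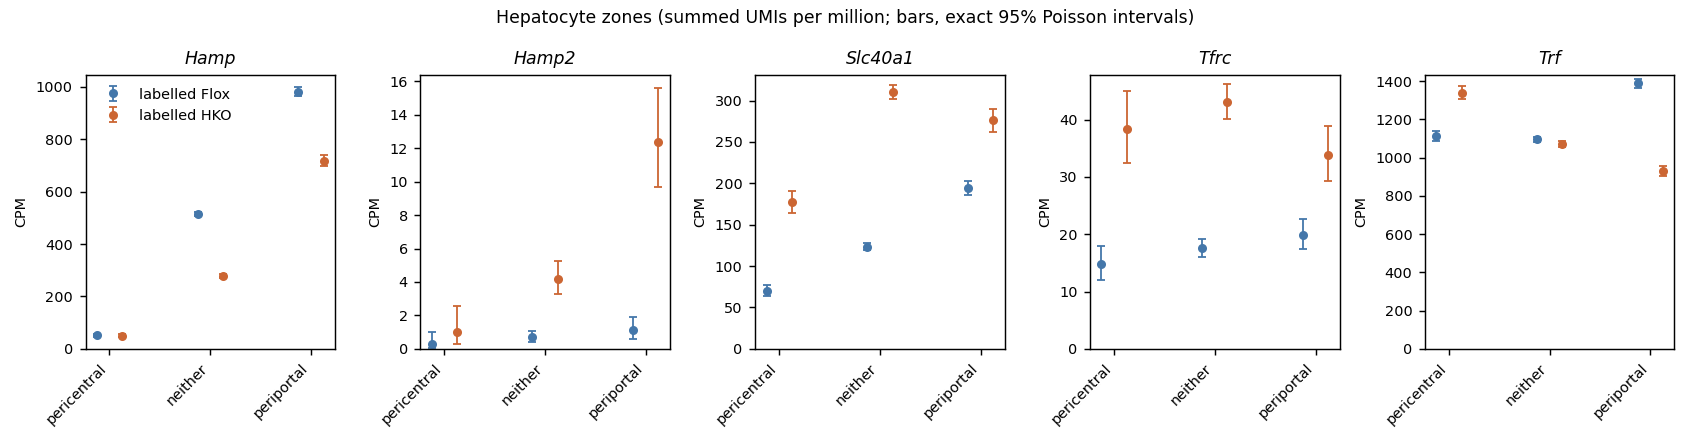
CPM of 5 genes in pericentral, neither and periportal hepatocytes of the library labelled Flox (blue) and the library labelled HKO (orange), with exact 95% Poisson intervals. *Hamp* is near 50 CPM in pericentral nuclei of both libraries and highest in periportal ones, and *Slc40a1* and *Tfrc* are higher in the HKO library in each zone.

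The ratios of the transferrin receptors lay on opposite sides of 1 in hepatocytes. *Tfrc* (transferrin receptor 1, on chr16:32608920-32632794, plus strand) brings transferrin iron into cells. It stood at 17.7 CPM (16.5 to 19) in hepatocytes labelled Flox and 40.4 CPM (38.1 to 42.9) in those labelled HKO, a ratio of 2.28 (2.08 to 2.50). The ratio was 2.60 in pericentral, 2.45 in neither and 1.70 in periportal nuclei, so the level was higher in all 3 zones. *Tfr2* (chr5:137569840-137587481, plus strand) serves as an iron sensor upstream of hepcidin. Its hepatocyte levels were 222 CPM (218 to 226) in the Flox library and 159 CPM (155 to 164) in the HKO library, and the ratio of 0.718 (0.693 to 0.744) is within 1.5-fold. The other classes held 0 to 18 UMIs of *Tfr2* each, at most 10.4% of the hepatocyte level. *Tfrc* had its highest level in macrophages, 62.3 CPM (49.4 to 77.5) in the Flox library and 48.3 CPM (39.4 to 58.7) in the HKO library, and the interval of their ratio, 0.776 (0.573 to 1.05), includes 1. In the HKO library the macrophage and hepatocyte intervals overlap. In the Flox library those of macrophages, B and T cells overlap, as do those of T cells and hepatocytes.

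*Trf* (transferrin, chr9:103204001-103230444, minus strand), the plasma iron carrier, stood at 1174 CPM (1164 to 1184) in hepatocytes labelled Flox and 1081 CPM (1069 to 1093) in those labelled HKO, a ratio of 0.921 (0.908 to 0.934). The other classes held 23.0% to 46.3% of that level, and the reference genes of free RNA covered that range. Cholangiocytes held 543 CPM (433 to 673) and 287 CPM (243 to 335) of *Trf*, with a ratio of 0.527, and the part of free RNA in it was not tested.

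Ferroportin was higher in hepatocytes and lower in macrophages and stellate cells of the library labelled HKO. In hepatocytes *Slc40a1* (chr1:45908068-45926523, minus strand) stood at 133 CPM (130 to 136) in the library labelled Flox and 284 CPM (278 to 291) in the other, and the ratio was 2.14 (2.07 to 2.21). At 1000 UMIs per nucleus 12.5% (11.6 to 13.3) and 22.9% (21.6 to 24.1) of hepatocytes held a UMI. The ratio was 2.53 in pericentral, 2.52 in neither and 1.42 in periportal nuclei. In macrophages, where it was highest, the levels were 4382 CPM (4268 to 4498) and 2648 CPM (2579 to 2719), with a ratio of 0.604 (0.582 to 0.627). Stellate cells held 463 CPM (429 to 499) and 274 CPM (249 to 299), with a ratio of 0.591 (0.524 to 0.665). Endothelial cells held 234 and 199 CPM, with an interval of the ratio from 0.705 to 1.02. Hepatocytes ranked after macrophages, stellate and endothelial cells in the Flox library. In the HKO library they ranked next to macrophages, and their interval overlapped that of stellate cells. T and B cells held 0 to 2 UMIs each. The 14 macrophage markers, all of them detected, summed to 0.339% and 0.480% of their macrophage level in hepatocytes. At that share macrophage RNA would give 14.8 of the 133 CPM of *Slc40a1* in hepatocytes labelled Flox and 12.7 of the 284 CPM in those labelled HKO. The same markers set the classes, and nuclei rich in them were not called hepatocytes, so that rule limits the share. In endothelial cells the macrophage markers summed to 1.03% (Flox) and 1.72% (HKO) of their macrophage level. The part of macrophage RNA in hepatocytes, stellate and endothelial cells was not tested.

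Ferroportin and ferritin were split by macrophage sub-type. Macrophages were called Kupffer-like by the markers of the resident cells (412 and 716 nuclei), lipid-associated-like by *Trem2*, *Gpnmb* and others (46 and 282), or neither (117 and 432). Markers of the resident cells differed unevenly between the libraries. Over all macrophages, Flox first, *Timd4* stood at 272 and 44.5 CPM and *Vsig4* at 390 and 218. *Clec4f* stood at 989 and 794 CPM and *Cd5l* at 1586 and 1483. The make-up of the Kupffer-like class may thus differ between the libraries, which was not tested. *Slc40a1* stood at 5367 CPM (5222 to 5514) in Kupffer-like nuclei labelled Flox and 3794 CPM (3681 to 3910) in those labelled HKO, and the ratio was 0.707 (0.679 to 0.736). Lipid-associated-like nuclei held 832 CPM (663 to 1031) and 1325 CPM (1219 to 1438), with a ratio of 1.59 (1.26 to 2.03). Those of neither sub-type held 1589 and 1353 CPM, with a ratio of 0.852 (0.748 to 0.971). Each sub-type thus stood above the ratio of all macrophages, 0.604. With the 3 sub-types given the weights of the Flox library in both libraries, the macrophage ratio was 0.729 and no longer past 1.5-fold, a weighting chosen after seeing the data. After thinning it was 0.685, also within 1.5-fold.

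Within the libraries, *Slc40a1* was 6.45-fold (5.19 to 8.11) higher in Kupffer-like than in lipid-associated-like nuclei labelled Flox and 2.86-fold (2.62 to 3.13) in those labelled HKO. The ferritin subunits ran the other way: *Fth1* had a ratio of 0.494 (0.413 to 0.593) and 0.620 (0.534 to 0.72), and *Ftl1* of 0.601 (0.512 to 0.709) and 0.764 (0.676 to 0.865). The 82 ribosomal protein genes summed to 9304 CPM in Kupffer-like and 17912 CPM in lipid-associated-like nuclei labelled Flox, and to 8989 and 9136 CPM in those labelled HKO. They were thus lower in Kupffer-like nuclei beside the ferritins in the Flox library and nearly level in the HKO library, and their part in the ferritin ratios was not tested. *Hmox1* was 1.80-fold (1.14 to 2.98) higher in Kupffer-like nuclei labelled Flox and 1.11-fold (0.841 to 1.48) in those labelled HKO. *Cp* was at 3.42 (1.31 to 12.7) on 133 and 4 UMIs and at 1.63 (1.05 to 2.60), and with doublets kept the second was 0.970. Of 6 genes with at least 100 UMIs in this comparison, 3 were higher and 2 lower in the Flox library and 2 higher and 1 lower in the HKO library. Among all genes 28.7% were higher and 12.4% lower in the Flox library (2339 genes), and 14.3% and 8.27% in the HKO library (3107 genes).

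**Figure D4:**
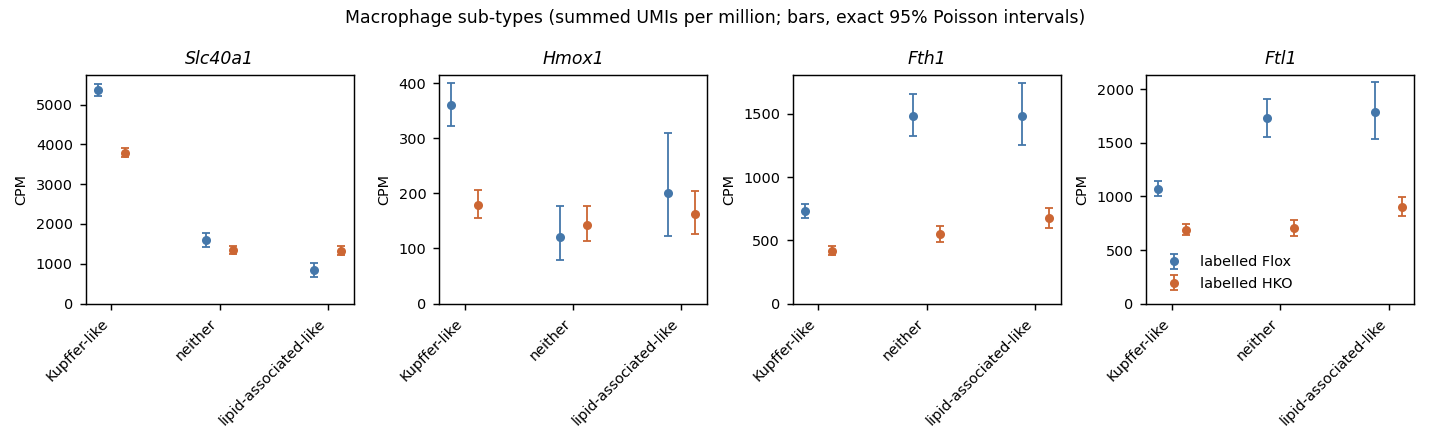
CPM of *Slc40a1*, *Hmox1*, *Fth1* and *Ftl1* in 3 macrophage sub-types of the library labelled Flox (blue) and the library labelled HKO (orange), with exact 95% Poisson intervals. *Fth1* and *Ftl1* are lower in the HKO library in each sub-type, and *Slc40a1* is lower in Kupffer-like and higher in lipid-associated-like nuclei.

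*Hmox1* (chr8:75093621-75100589, plus strand), the inducible enzyme that opens heme, stood at 307 CPM (278 to 339) in macrophages labelled Flox and 166 CPM (149 to 185) in those labelled HKO, and the ratio was 0.541 (0.467 to 0.626). In Kupffer-like nuclei the levels were 360 CPM (323 to 400) and 180 CPM (156 to 206), with a ratio of 0.499 (0.417 to 0.595). Lipid-associated-like nuclei held 200 and 162 CPM, on 20 and 70 UMIs. In hepatocytes *Hmox1* was low, at 6.08 CPM (5.39 to 6.83) and 8.98 CPM (7.90 to 10.2), and the ratio was 1.48 (1.24 to 1.76), or 2.01 after thinning. At the share of macrophage markers given for *Slc40a1*, macrophage RNA would give 1.04 and 0.798 CPM of these levels, which was not tested. No UMI was found in T or B cells, which allows up to 24.9 to 60.7 CPM.

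The ferritins, ferroportin and *Tfrc* share a stem-loop, shown here because it is known to tie the use of these mRNAs to iron. The search asked for a bulged C, 5 paired bases and a loop of 6 bases that starts with CAGTG, on the strand of the mRNA. Each site of 30 bases comes from a GENCODE transcript of the gene on GRCm38, with the loop in capitals.
*Fth1*, ahead of the coding sequence: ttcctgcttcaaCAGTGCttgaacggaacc
*Ftl1*, ahead of the coding sequence: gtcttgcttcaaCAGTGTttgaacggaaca
*Slc40a1*, ahead of the coding sequence: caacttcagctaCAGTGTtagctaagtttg
*Tfrc*, the first of 4 behind the coding sequence: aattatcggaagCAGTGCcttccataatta
Of 21157 protein-coding genes, each by its longest transcript, 21 (0.0993%) held such a match ahead of the coding sequence and 118 (0.558%) behind it. Among the 10 genes it was found in these 4 and in none of the other 6. The mRNA counts carry no measure of translation, which is the step at which the sites ahead of the coding sequence are known to act.

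Both ferritin subunits were lower in the library labelled HKO in all 7 classes, although the intervals of 2 of the 7 ratios for *Fth1* and of 3 for *Ftl1* include 1. *Fth1* (heavy subunit, which oxidises iron, chr19:9980598-9985098, plus strand) had 317 CPM (312 to 322) and 215 CPM (210 to 221) in hepatocytes, with a ratio of 0.680 (0.659 to 0.701). *Ftl1* (light subunit, chr7:45457944-45459884, minus strand) had 593 CPM (586 to 600) and 397 CPM (389 to 404), with a ratio of 0.669 (0.654 to 0.684). Both lie just inside 1.5-fold, and both were past it after TMM scaling, *Ftl1* also with doublets kept and among nuclei with at least 5000 UMIs. By zone, *Ftl1* was at 0.835 in pericentral nuclei and past the fold in neither (0.659) and periportal ones (0.612). *Fth1* was within the fold in each zone (0.745, 0.670 and 0.680 in the same order). In macrophages *Fth1* was at 916 CPM (865 to 970) and 504 CPM (474 to 535), with a ratio of 0.550 (0.506 to 0.598). *Ftl1* was at 1238 CPM (1178 to 1300) and 738 CPM (701 to 775) there, with a ratio of 0.596 (0.555 to 0.640). In stellate cells the ratios were 0.490 (0.420 to 0.571) and 0.456 (0.392 to 0.529). Ribosomal protein genes, whose mRNAs are likewise short and mostly cytoplasmic, were lower beside them: the 82 genes summed to ratios of 0.743 in hepatocytes, 0.829 in macrophages and 0.775 in stellate cells, but to 1.12 in endothelial cells, where *Fth1* was at 0.733. In lipid-associated-like macrophages the ribosomal sum was at 0.510, with *Fth1* at 0.454 and *Ftl1* at 0.507, and in Kupffer-like ones at 0.966, with 0.569 and 0.644. The part of cytoplasmic RNA in the ferritin ratios was not tested. The near-copy *Ftl1-ps1* held 788 and 548 UMIs in hepatocytes beside 27310 and 10949 of *Ftl1*, with a ratio of 1.16, and reads of the pair can be hard to tell apart.

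*Cp* (ceruloplasmin, chr3:19957054-20009145, plus strand), the copper oxidase that loads iron onto transferrin, was highest in cholangiocytes, which held 3932 CPM (3626 to 4258) in the Flox library and 4205 CPM (4034 to 4382) in the HKO library. The interval of their ratio, 1.07 (0.977 to 1.17), includes 1. Hepatocytes followed with 922 CPM (913 to 931) and 1245 CPM (1232 to 1259), and stellate cells with 668 CPM (627 to 711) and 812 CPM (771 to 856). Neighbours in this order did not overlap in either library. *Cp* was 1.35-fold (1.33 to 1.37) higher in hepatocytes labelled HKO and 1.22-fold (1.12 to 1.32) higher in stellate cells, both within 1.5-fold. By zone, the ratio was 1.43 in pericentral, 1.47 in neither and 1.01 (0.975 to 1.04) in periportal nuclei. Endothelial cells held 43.1 CPM (31.2 to 58) and 97.4 CPM (80.3 to 117), with a ratio of 2.26 (1.58 to 3.29), at 4.67% and 7.82% of the hepatocyte level, which is below the reference genes of free RNA.

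Other genes of iron and heme handling were read from 8 lists with 97 genes in the files, of which 92 had at least 100 UMIs in hepatocytes. Of these, 7 (7.61%) stood at least 1.5-fold above and 12 (13%) at least 1.5-fold under their Flox level. Among all genes these shares were 8.77% and 10.8%, so the lists stood near the background. The median ratio of the 92 was 1.0, beside 0.987 over all genes. The list for control of hepcidin by BMP and SMAD holds both inputs and targets, and 2 of its 20 genes were higher and 2 lower. The rest lay within 1.5-fold on either side of 1, among them *Smad7* (1.41), *Atoh8* (1.30), *Id1* (1.23) and *Id3* (0.687). *Id2*, an inhibitor of helix-loop-helix factors, went from 507 to 314 CPM (ratio 0.618) and *Tmprss6*, a protease known to restrain hepcidin, from 97.1 to 63.7 CPM (0.656). The highest were *Eng*, an endothelial co-receptor, at 1.19 and 2.21 CPM (1.85) and *Bmp2* at 3.52 and 5.61 CPM (1.60). Both are low here, and the summed endothelial markers in hepatocytes stood at 26.1 and 32.6 CPM. Those markers also set the classes, and the part of endothelial RNA was not tested. In endothelial cells, the known source of the ligands, *Bmp2* stood at 1173 and 972 CPM (0.828, 0.763 to 0.899) and *Bmp6* at 54.1 and 29.9 CPM (0.553, 0.351 to 0.862, on under 100 UMIs).

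The list for IL-6 and STAT3 holds inputs to hepcidin along with genes that the pathway induces. It had no gene past 1.5-fold upward and 3 of 10 downward. *Saa1* and *Saa2*, acute-phase serum amyloids that IL-6 induces, went from 479 to 78.5 CPM (0.164, 0.157 to 0.171) and from 121 to 30.6 CPM (0.254, 0.236 to 0.273). The third was *Socs3*, the feedback inhibitor of this pathway (0.377), named here because the count is small and its value was seen first. The receptor subunit *Il6st* had the highest ratio, 1.47, followed by *Crebl2* at 1.13. Other inputs also lay within 1.5-fold: *Il6ra* (1.11), *Jak1* (0.877), *Jak2* (1.08) and *Stat3* (0.680). The median of the list was 0.786.

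In iron uptake and trafficking, 1 of 11 genes was higher and 2 lower. *Steap2*, a metalloreductase, went from 9.12 to 14.3 CPM (1.57) and *Slc11a2*, the divalent metal transporter, from 37.2 to 46.4 CPM (1.25), while *Steap4* went from 83.1 to 48.5 CPM (0.584) and *Lrp1*, the receptor for heme bound to hemopexin, from 684 to 407 CPM (0.594). In heme and haemoglobin scavenging, 2 of 8 were lower, *Lrp1* again and *Hp* (haptoglobin, which binds free haemoglobin) from 753 to 493 CPM (0.655), and none was higher. Among the iron sensors *Fbxl5*, which targets the iron regulatory proteins for degradation, was higher (39.1 and 61.8 CPM, 1.58) and *Pcbp1*, an iron chaperone of ferritin, lower (80.4 and 49.2 CPM, 0.613), of 8 genes.

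Heme synthesis had 1 of 12 genes past the fold, *Alas1*, its rate-limiting enzyme in the liver, which went from 1530 to 2358 CPM (1.54, 1.52 to 1.56). In heme breakdown and its control, 2 of 11 were higher, *Gclc* (213 and 364 CPM, 1.71) and *Nqo1* (1.87 and 3.12 CPM, 1.67), targets of the oxidative stress factor NRF2, and *Hmox2*, the constitutive heme oxygenase, was lower (9.40 and 6.19 CPM, 0.659). The median of that list, 1.20, was the highest of the 8. Of 13 genes for iron-sulphur clusters, 2 were lower, the scaffold *Iscu* (25.2 and 14.7 CPM, 0.583) and *Isca2* (0.628), and none was higher.

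**Figure D5:**
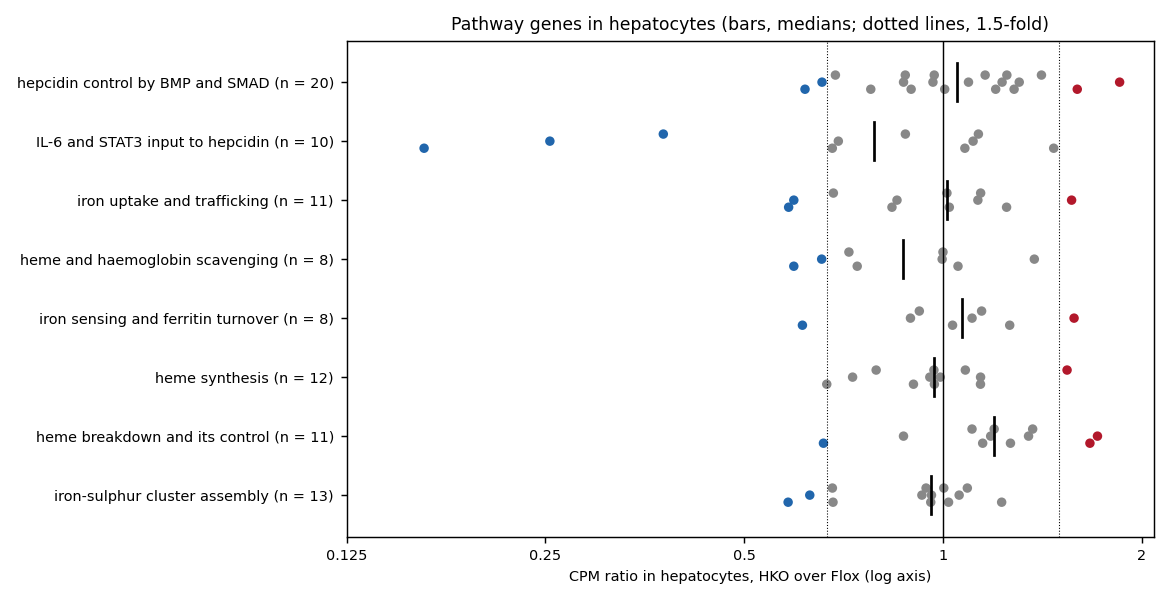
Ratio of CPM in hepatocytes labelled HKO to that in hepatocytes labelled Flox (log axis) for the genes of 8 lists. Each point is a gene with at least 100 UMIs, black bars are list medians, dotted lines 1.5-fold. *Saa1*, *Saa2* and *Socs3* stand lowest, at 0.164, 0.254 and 0.377.

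In macrophages 53 genes of the lists had at least 100 UMIs. Past 1.5-fold, 2 of them were above their Flox level and 8 under it, which is 3.77% and 15.1%, beside 3.85% and 9.32% of all genes. The median ratio was 0.893, beside 0.942 over all genes. *Cd163*, the macrophage receptor for haptoglobin bound to haemoglobin, had the lowest ratio: 311 CPM in the Flox library and 30.3 CPM in the HKO library, a ratio of 0.0976 (0.0738 to 0.127). In Kupffer-like nuclei alone it stood at 406 and 54.2 CPM, a ratio of 0.133 (0.1 to 0.175). The make-up of that class may differ between the libraries, as given with its markers. *Isca2* (0.460), the BMP target *Id3* (367 and 179 CPM, 0.487) and *Smad7* (209 and 120 CPM, 0.577) were lower too. *Alas1* (1.73) and the lysosomal channel *Mcoln1* (1.55) were the 2 higher ones. *Slc11a1*, the iron transporter of the phagosome, was at 241 and 170 CPM (0.703).

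Over the 14 profiles of 7 classes in 2 libraries, the genes most like each member among 12784 were named by Pearson's r of log2(CPM + 1). These r are descriptions, since the profiles of a library share its depth and free RNA. *Hamp* and *Trf* were closest to other secreted or metabolic genes of hepatocytes, *Hamp* to *Apoa1* (0.981), *Cyp2e1* (0.980) and *Ces3a* (0.974) and *Trf* to *Ces3a* (0.959), *Mgst1* (0.955) and *Car3* (0.953). *Tfr2* was closest to *Gm13775* (0.977), *Ldhd* (0.970) and *Plin4* (0.968), *Cp* to *Btc* (0.969), *Dclk3* (0.964) and *Bdnf* (0.956), and *Hmox1* to *Csf3r* (0.941), *Igsf6* (0.934) and *Gm12689* (0.934). For *Slc40a1* the closest were *Mpp1* (0.911), *Nfxl1* (0.899) and *Trafd1* (0.899), and for *Tfrc* *Psmd14* (0.879), *Utp20* (0.876) and *Sh3bp2* (0.864). The ferritins had *Gm2a* (0.875), *Atp13a2* (0.827) and *Nufip2* (0.822) for *Fth1*, and *Stub1* (0.888), *Mapk14* (0.884) and *Gpx1* (0.871) for *Ftl1*. *Hamp2*, with 194 UMIs in all, was closest to *Cyp2b13* (0.869), *Pklr* (0.848) and *Gm9803* (0.833).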

How the data were processed

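Each of the 2 libraries (10x 3′ snRNA-seq) came as a table of UMI counts by gene and barcode, which the authors made with Cell Ranger 8.0.1 on GRCm38 without intronic reads. The deposited counts are not normalized. Much nuclear RNA is unspliced, and exon-only counts take in a part of it.

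Barcodes with at least 300 genes were kept. The highest Scrublet scores (Scanpy 1.11.5, 30 components) were removed at 0.8% per 1000 barcodes, which took 701 and 920. A nucleus reached a marker list other than that of hepatocytes with at least 3 UMIs that made up at least 0.1% of its UMIs. It was given that class where these UMIs covered at least 2 genes and were 3 times those of the next list. It was set aside as mixed where this failed, or where hepatocyte markers also made up 0.5%. It was called a hepatocyte where no such list was reached and hepatocyte markers made up at least 0.4%. There were 394 and 461 nuclei of mixed markers and 105 and 524 of none, which were left out together with classes under 50 nuclei. That limit was not applied to macrophage sub-types, of which the lipid-associated-like one held 46 nuclei in the Flox library. Hepatocyte markers lay between 0.4% and 0.5% in 26 and 139 hepatocytes. Between 0.05% and 0.2% of pericentral markers lay 273 and 201 hepatocytes. A macrophage was given a sub-type with at least 2 UMIs of its markers and 2 times those of the other. UMIs were summed per class and library, since nuclei are not replicates. Levels have exact Poisson, shares exact Clopper-Pearson and ratios exact conditional binomial intervals of 95%, which cover counting error only. A count of 0 was taken to allow 3 UMIs of the class total. Ratio and interval were tested on simulated data with known changes. TMM factors came from edgeR 4.0.16. Coordinates and transcripts are those of GENCODE on GRCm38, and promoters those of RefSeq. Promoters were found for 7 of the 10 genes, and no protein sequences were used.

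All 10 genes were named in every class with at least 50 nuclei per library. For each pathway list the 2 highest and 2 lowest ratios were to be named, of which the text gives mainly those past the fold. Outside this rule, it also names *Smad7*, *Atoh8*, *Id1*, *Id3*, *Socs3*, *Il6ra*, *Jak1*, *Jak2* and *Stat3* in hepatocytes. *Bmp2* and *Bmp6* in endothelial cells are outside it as well. Other genes of the same lists within the fold are left out. For each member the 3 genes of highest correlation were named, among genes with at least 200 UMIs. The members and lists were chosen with earlier results of these data known. The names *Dmt1* and *Cd91* on the lists are not symbols of the deposited files. The alternatives were other filters, cell calls, scalings, depths, zone limits, pseudocounts and folds.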

Additional observations from a re-analysis of the deposited data

Results flagged for a closer look

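For *Slc40a1*, neither the difference between classes nor the part of macrophage RNA outside macrophages was tested, with each library as 1 sample. This gene was past 1.5-fold in opposite directions between classes. Its ratio of the library labelled HKO to that labelled Flox was 2.14 in hepatocytes, 2.53 in pericentral hepatocytes and 2.52 in hepatocytes of neither zone, but 0.604 in macrophages and 0.591 in stellate cells. In lipid-associated-like macrophages it was 1.59, on 83 and 573 UMIs, and in macrophages of neither sub-type 0.852. The macrophage value was within 1.5-fold with the sub-types weighted as in the Flox library (0.729), after thinning (0.685) and in Kupffer-like nuclei alone (0.707), on the lower side of 1 each time. *Hmox1* did the same at a lower level of counts: 1.63 in hepatocytes of neither zone (175 and 187 UMIs), 0.541 in macrophages and 0.499 in Kupffer-like macrophages. In periportal hepatocytes it was 1.05 (0.682 to 1.59) and in pericentral ones 1.27 (0.728 to 2.18, on 35 and 25 UMIs), and both intervals include 1. The difference of *Hmox1* between classes was not tested either.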

How the results depend on the processing

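Each value for a single gene was recomputed under every alternative that applied to it. Of 311 such values, 267 stayed within the counting interval of the reported one, 43 moved out of it and 1 value past the fold changed sides: *Cp* in Kupffer-like over lipid-associated-like nuclei of the HKO library was 0.970 with doublets kept. *Cp* in macrophages, within the fold as reported (0.734), also crossed 1 with doublets kept (1.03). In hepatocytes the genes higher in the library labelled HKO were *Hamp2*, *Tfrc* and *Slc40a1* under all 8 alternatives, with *Hmox1* added under 3 (clusters, thinning, at least 5000 UMIs). The count of lower genes went from 1 to 2 with doublets kept, to 3 with TMM scaling and to 2 among nuclei with at least 5000 UMIs. In macrophages the count of lower genes was 3 after thinning (*Hmox1*, *Fth1* and *Ftl1*), 4 with sub-types weighted as in the Flox library (without *Slc40a1*), 6 with classes from clusters (*Cp* added) and 5 as reported. The count of genes higher in Kupffer-like nuclei labelled HKO was 1 with doublets kept. With genes of 1 UMI and more admitted, 21.7% of genes were past the fold upward and 19.8% downward in hepatocytes. At a fold of 2 the lists held 0 higher and 3 lower genes in hepatocytes. With a pseudocount of 10 CPM in place of 1, the log2 ratio of *Hamp2* was 0.52 in place of 1.89. The weighting by sub-groups and the limit of 5000 UMIs were chosen after seeing the data. No paired analysis was possible because there is 1 library per group, and no replicate could be left out. Depth limits T, B, cholangiocyte and, in the Flox library, lipid-associated-like values, and the spread between animals is not measured.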
